A study of Mus musculus with 6 samples.

Results

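Heat shock given before lipopolysaccharide (LPS) was compared with LPS alone in primary fibroblasts, the matrix-making cells of connective tissue, cultured from mouse embryos. The 2 embryos, at embryonic day 15.5 and of ICR stock, which is outbred, gave 1 culture each, so every value rests on 2 cultures, here called culture 1 and culture 2. In the LPS group a culture kept at 37 °C received LPS of E. coli 0127:B8 at 1 μg/ml for 4 h. In the HS+LPS group the same culture was heated to 42 °C for 1 h before its 4 h of LPS, at a dose the labels do not repeat. A Control group of untreated cells at 37 °C is given for reference. No heated group lacking LPS entered the comparison, so a difference between HS+LPS and LPS holds what heat does alone and what it does to the LPS response. The comparison uses 4 of the 6 arrays of the series, HS+LPS minus LPS within each culture, with all 6 arrays in the fit, and its features are the 12918 genes that had a probe set with exactly 1 gene symbol above a filter on dim signals, each read by its brightest such probe set.

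LPS, the lipid-anchored sugar coat of Gram-negative bacteria, binds Toll-like receptor 4. The receptor signals through the adaptor MyD88 to NF-kB, which drives chemokines, cytokines and adhesion molecules, and through the adaptor TRIF to interferon regulatory factors, whose product interferon beta then switches on antiviral genes through STAT and IRF proteins. Heat unfolds proteins and releases heat shock factor 1, which binds heat shock elements in the promoters of chaperone genes. The series title states the purpose of the study as finding inflammatory genes that heat shock suppresses.

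The deposited values are linear signal intensities from 1-colour Affymetrix Mouse Genome 430 2.0 arrays, scaled by the authors so that the mean of each array after trimming 2% at each end was 100.001. Array medians lay between 11.9 and 14.4 and the highest signals between 6931 and 8434, so that a gene near this top may show a smaller fold than its RNA; this was not tested. Signals of bacterial control probe sets, which have no target in mouse RNA, reached 6.0 to 7.67, and this brightest control on each array is taken as its noise level. All 12 fibroblast and mesenchymal markers fixed to check the label were measured, and their summed signal, carried by the brightest, was 29081 to 34680 with LPS and 28998 to 36451 with HS+LPS. Of the 12, Pdgfra (−0.96 ± 0.18) and Pdgfrb (−0.81 ± 0.07) fell and none rose. Of 14 macrophage and leukocyte markers, only Itgam and Cd163 were at or under the noise level on all 6 arrays. The brightest, a lysozyme gene, read 384 and 168 with LPS and 376 and 172 with HS+LPS. The summed signal of the list was 527 to 971 with LPS and 490 to 820 with HS+LPS. The part of such cells in the results was not tested. Eif2s3y, a Y-linked gene, read 369 and 2.33 with LPS and 394 and 0.399 with HS+LPS, bright in culture 1 and under the noise level in culture 2 on these arrays as the culture numbers would have it.

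Promoters of genes from both responses are shown first, because several of the genes with large differences carry matches to binding motifs of heat shock, interferon-regulated and NF-kB factors. The sequences are from RefSeq on GRCm38.p6 and run 5′ to 3′ on the strand of the gene, and capitals mark the motif matches. The first set holds heat shock genes with the head-to-head heat shock element GAANNTTC. Hspa1a and Hspa1b, neighbouring genes for nearly the same HSP70 protein, are identical at 296 of 300 promoter bases, and the match begins 104 bases before either start. In Hspb1 the matches begin 117 and 97 bases before the start, and in Bag3 and Hsph1 they lie after it. Hsph1 also matches the longer form with a further unit. The windows lie at chr17:34972157-34972306, minus strand (Hspa1a), chr17:34959239-34959388, minus strand (Hspa1b), chr5:135887769-135887918, plus strand (Hspb1), chr7:128523533-128523632, plus strand (Bag3) and chr5:149636287-149636386, minus strand (Hsph1).
Hspa1a: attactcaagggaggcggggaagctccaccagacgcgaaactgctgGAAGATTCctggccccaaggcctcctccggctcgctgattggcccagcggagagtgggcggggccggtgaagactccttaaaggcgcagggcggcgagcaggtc
Hspa1b: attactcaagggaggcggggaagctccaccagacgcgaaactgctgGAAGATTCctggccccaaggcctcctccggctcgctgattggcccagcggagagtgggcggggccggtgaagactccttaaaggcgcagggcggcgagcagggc
Hspb1: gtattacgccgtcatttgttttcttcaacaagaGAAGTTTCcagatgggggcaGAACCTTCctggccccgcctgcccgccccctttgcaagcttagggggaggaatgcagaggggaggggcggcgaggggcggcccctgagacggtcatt
Bag3: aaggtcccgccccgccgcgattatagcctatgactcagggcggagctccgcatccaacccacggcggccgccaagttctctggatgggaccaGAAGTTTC
Hsph1: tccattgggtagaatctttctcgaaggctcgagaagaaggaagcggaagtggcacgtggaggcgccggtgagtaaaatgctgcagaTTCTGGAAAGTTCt

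The second set holds genes of the LPS response. Cxcl10, Ifit1, Rsad2 and Gbp2 match the core of the interferon-stimulated response element, and Cxcl10, Nfkbie, Tlr2, Cxcl2 and Il6 match the NF-kB motif, searched as its degenerate consensus on both strands; in Tlr2 and Cxcl2 a pair of matches overlap and are drawn as 1 run. Il6 is shown beside them because its promoter carries the same kind of match while its signal did not pass the test. The windows lie at chr5:92348960-92349109, minus strand (Cxcl10), chr19:34640769-34640888, plus strand (Ifit1), chr12:26456453-26456592, minus strand (Rsad2), chr3:142620543-142620662, plus strand (Gbp2), chr17:45555570-45555699, plus strand (Nfkbie), chr3:83841669-83841798, minus strand (Tlr2), chr5:90903779-90903898, plus strand (Cxcl2) and chr5:30013014-30013113, plus strand (Il6). A match is a description of the letters and not evidence of binding.
Cxcl10: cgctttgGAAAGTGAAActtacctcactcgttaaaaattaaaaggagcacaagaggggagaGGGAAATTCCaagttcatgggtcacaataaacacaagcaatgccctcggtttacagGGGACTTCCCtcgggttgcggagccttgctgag
Ifit1: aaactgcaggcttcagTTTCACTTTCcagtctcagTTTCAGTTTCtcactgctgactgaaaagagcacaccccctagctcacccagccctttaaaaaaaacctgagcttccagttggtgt
Rsad2: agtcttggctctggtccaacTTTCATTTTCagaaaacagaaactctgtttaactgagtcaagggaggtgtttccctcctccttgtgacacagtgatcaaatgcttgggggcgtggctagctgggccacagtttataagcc
Gbp2: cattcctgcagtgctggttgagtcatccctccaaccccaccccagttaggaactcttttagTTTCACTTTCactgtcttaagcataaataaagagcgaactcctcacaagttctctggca
Nfkbie: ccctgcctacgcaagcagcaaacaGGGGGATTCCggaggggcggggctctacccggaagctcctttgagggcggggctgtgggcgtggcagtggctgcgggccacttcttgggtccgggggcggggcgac
Tlr2: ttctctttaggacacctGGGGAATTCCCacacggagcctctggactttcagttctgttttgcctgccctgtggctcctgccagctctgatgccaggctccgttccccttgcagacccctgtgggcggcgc
Cxcl2: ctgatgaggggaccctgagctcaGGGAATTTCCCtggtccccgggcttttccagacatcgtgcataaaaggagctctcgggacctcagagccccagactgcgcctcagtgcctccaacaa
Il6: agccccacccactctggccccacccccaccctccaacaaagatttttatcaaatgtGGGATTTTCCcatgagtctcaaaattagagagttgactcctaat

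With heat shock before LPS, 816 genes were higher and 1627 lower than with LPS alone, which is 6.32% and 12.6% of the genes tested, or 18.9% in all (limma with the culture as a block, Benjamini-Hochberg adjusted p under 0.05). The difference was at least 2-fold for 205 of the higher and 373 of the lower genes, at least 4-fold for 49 and 63, and at least 8-fold for 24 and 20. The median difference of all genes was −0.05 on the log2 scale. For the genes at the extremes, 1 culture was used to choose them and the other to read them. Of 54 genes at least 4-fold higher in culture 1, 52 were higher in culture 2, with a median log2 difference of 2.58 there. Of 86 genes at least 4-fold lower in culture 1, 80 were lower in culture 2, with a median of −1.92. Of 84 genes at least 4-fold higher in culture 2, 78 were higher in culture 1, with a median of 1.67 there against 2.48 in culture 2, and of 74 at least 4-fold lower in culture 2, 72 were lower in culture 1, with a median of −2.09. Across all genes the differences of the cultures had a Pearson correlation of 0.62 and a Spearman correlation of 0.54; genes are not independent replicates, and the 2 values come from different arrays of embryos that differ.

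The number of calls rests on the pairing of arrays by culture and on single arrays. Without the culture in the fit, 66 genes were higher and 107 lower (0.511% and 0.828%, or 1.34% in all), all of them among the 2443. With the unadjusted p under 0.05, the fit with the block had 1623 higher and 2747 lower genes. Leaving out the LPS array of culture 2 left 275 higher and 508 lower, and leaving out that of culture 1 left 448 and 863. Centring each array on its median moved the median difference of all genes to 0.08 and the split to 1832 higher and 1093 lower, so directions of genes that differ by about 0.1 on the log2 scale depend on the scaling.

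**Figure D1:**
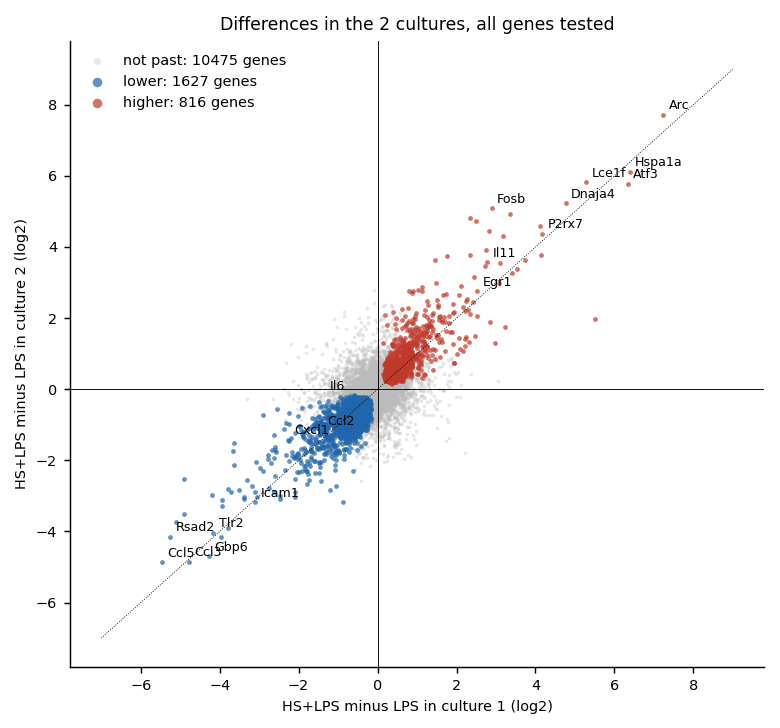
Difference between HS+LPS and LPS in culture 1 (horizontal axis, log2) and culture 2 (vertical axis, log2), 1 point per gene for the 12918 genes tested, coloured by whether the gene was called higher (816), lower (1627) or not past the threshold; the dotted line marks equal differences. Arc, Hspa1a and Atf3 lie at the top right near the line and Ccl5, Ccl3 and Rsad2 at the bottom left, while Il6 lies near 0 in culture 2.

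**Figure D2:**
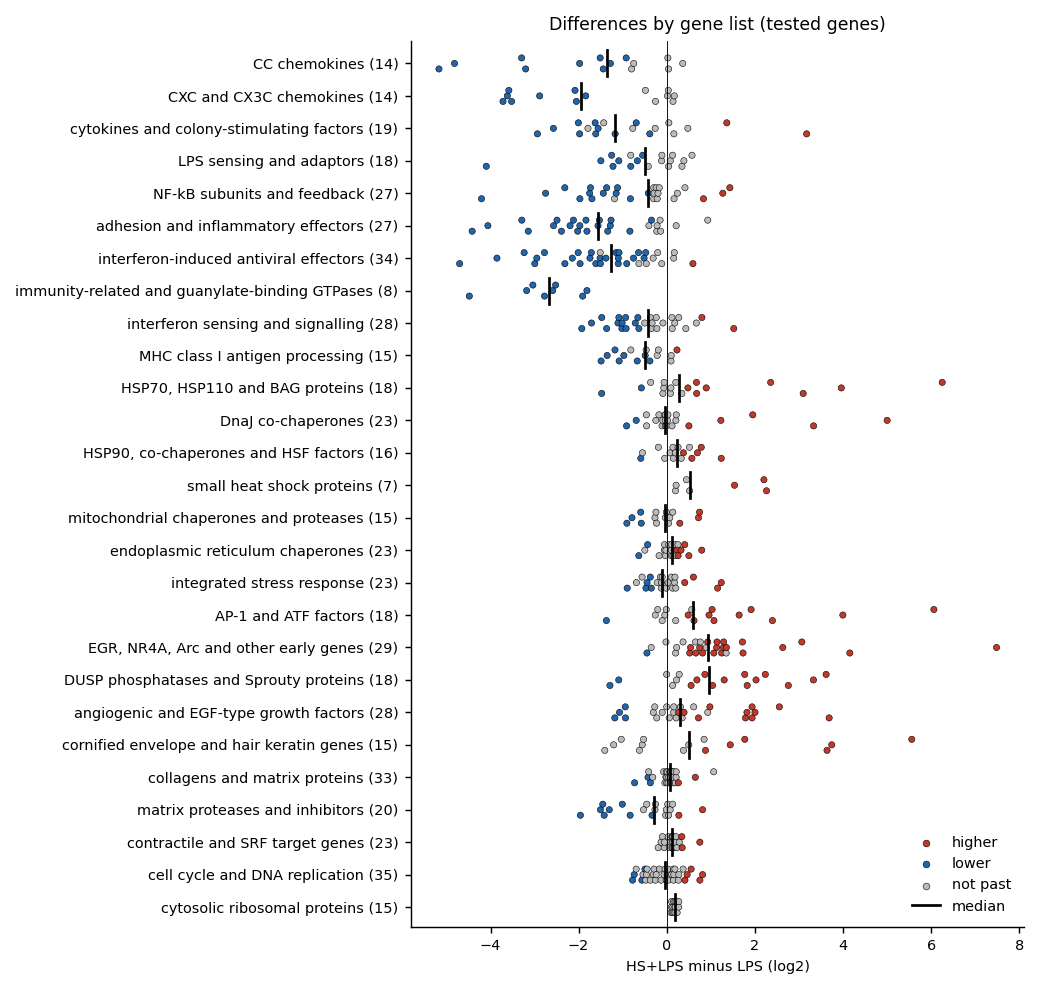
Differences between HS+LPS and LPS (horizontal axis, log2) for the tested genes of 27 of the gene lists, 1 point per gene with its call, the black bar at the list median and the number of genes in brackets. The medians of the chemokine, adhesion, interferon and GTPase lists lie left of 0 and those of the early gene and phosphatase lists right of it, while the HSP70 and DnaJ lists hold a few genes far to the right and the others near 0.

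The heat shock genes were read first, as the check that the heat treatment left its mark. HSP70 proteins fold other proteins with the help of DnaJ proteins, nucleotide exchange factors of the HSP110 and BAG families and, downstream, HSP90. Hspa1a, the main inducible HSP70, read 56.8 and 68.1 with LPS and 5029 and 4940 with HS+LPS (log2 difference 6.25 ± 0.11, adjusted p = 2.64e-08, SE here and throughout). Both cultures ended near the same signal and the groups did not overlap. Hspa1b read 254 and 331 with LPS and 4530 and 4585 with HS+LPS (log2 difference 3.96 ± 0.10, adjusted p = 8.84e-08); the 2 genes differ so little in sequence that their probe sets may share signal. Hsph1, an HSP110 exchange factor, read 537 and 363 with LPS and 3550 and 4064 with HS+LPS (log2 difference 3.10 ± 0.16, adjusted p = 1.33e-05). Bag3, which hands HSP70 clients to autophagy, read 461 and 422 with LPS and 2176 and 2376 with HS+LPS (log2 difference 2.36 ± 0.11, adjusted p = 5.24e-06). Hspa8, the HSP70 made without stress, started near the top of the scale at 4933 and 4342 and read 6547 and 6361 with HS+LPS (log2 difference 0.48 ± 0.07, adjusted p = 0.00246). Of 18 tested genes of the 19 listed, 8 rose and 2 fell, Bag4 and Hspa12b, and the median difference was 0.27; the 4 inducible genes Hspa1a, Hspa1b, Hsph1 and Bag3 were also called without the culture block. The calls of Hspa8, Bag4 and Hspa12b were lost without the HS+LPS array of culture 2, and those of Bag4 and Hspa12b also without either LPS array.

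Among 23 DnaJ co-chaperones, which deliver clients to HSP70, 5 rose and 2 fell, with a median of −0.03. The change sat in a few members: Dnaja4 read 129 and 91.1 with LPS and 3604 and 3545 with HS+LPS (log2 difference 5.0 ± 0.12, adjusted p = 8.84e-08), and Dnajb1, the usual partner of inducible HSP70, read 559 and 547 with LPS and 5916 and 5292 with HS+LPS (log2 difference 3.33 ± 0.07, adjusted p = 7.95e-08). Dnajb4 (1.95 ± 0.16) and Dnaja1 (1.23 ± 0.08) rose by less, and these 4 were called without the block as well. Dnajb9, a co-chaperone of the endoplasmic reticulum, rose by 0.50. The 2 that fell were Dnajc16 and Dnajb14, at −0.91 and −0.69, and neither call held without the LPS array of culture 2. The other 16 did not pass the test and lay between −0.46 and 0.21.

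Of 16 genes of HSP90, its co-chaperones and the heat shock factors, 5 rose and 1 fell. Hsp90aa1, the inducible cytosolic HSP90, read 3162 and 2815 with LPS and 4812 and 4851 with HS+LPS (log2 difference 0.69 ± 0.08, adjusted p = 0.000618), Ahsa1, which activates its ATPase, rose by 0.78, Chordc1 by 0.57 and Stip1, the adaptor between HSP70 and HSP90, by 0.38. Chac1, a glutathione-degrading enzyme that this list also held, rose by 1.24 and was the only one called without the block. Fkbp5 fell by 0.59. Hsf1 was not among the genes tested, and Hsf2 and Hsf4 did not pass. The call of Fkbp5 was lost without either LPS array. Among 7 small heat shock proteins, which hold unfolded proteins in solution, 3 rose: Hspb1 read 1830 and 855 with LPS and 6097 and 5467 with HS+LPS (log2 difference 2.20 ± 0.18, adjusted p = 0.000116), Hspb8, the partner of Bag3, read 244 and 295 with LPS and 1205 and 1406 with HS+LPS (log2 difference 2.26 ± 0.11, adjusted p = 7.09e-06), and Cryab, alpha-B crystallin, read 2498 and 718 with LPS and 4283 and 3540 with HS+LPS (log2 difference 1.54 ± 0.29, adjusted p = 0.00869). Cryab and Hspb1 differed between the cultures with LPS and lay close together with HS+LPS; Cryab was not called without the LPS array of culture 2, and only Hspb8 was called without the block.

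Chaperones of other compartments had smaller differences. In mitochondria Hspd1 and Hspe1, the HSP60 and HSP10 chaperonin, rose by 0.74 and 0.72 and Grpel1 by 0.30, while Dnaja3, Clpx, Grpel2 and Htra2 fell by 0.91, 0.79, 0.59 and 0.58; of 15 tested, 3 rose and 4 fell, and only Dnaja3 among the 4 that fell was called without the LPS array of culture 2. Of 23 endoplasmic reticulum chaperones, 6 rose and 2 fell. Hspa5, or BiP, the HSP70 of that compartment, rose by 0.32 and Serpinh1, the collagen chaperone, by 0.41, and without the LPS array of culture 1 only 1 of the 6 increases was called, and without the LPS array of culture 2 or the HS+LPS array of culture 1, 2 were. Of 14 subunits of the cytosolic CCT chaperonin and prefoldin 4 rose, by 0.28 to 0.32, and none of these was called without either LPS array and 1 was called without either HS+LPS array; the median of the list was 0.16, and 0.02 after quantile normalization. No gene of the last 3 lists was called without the block.

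**Figure D3:**
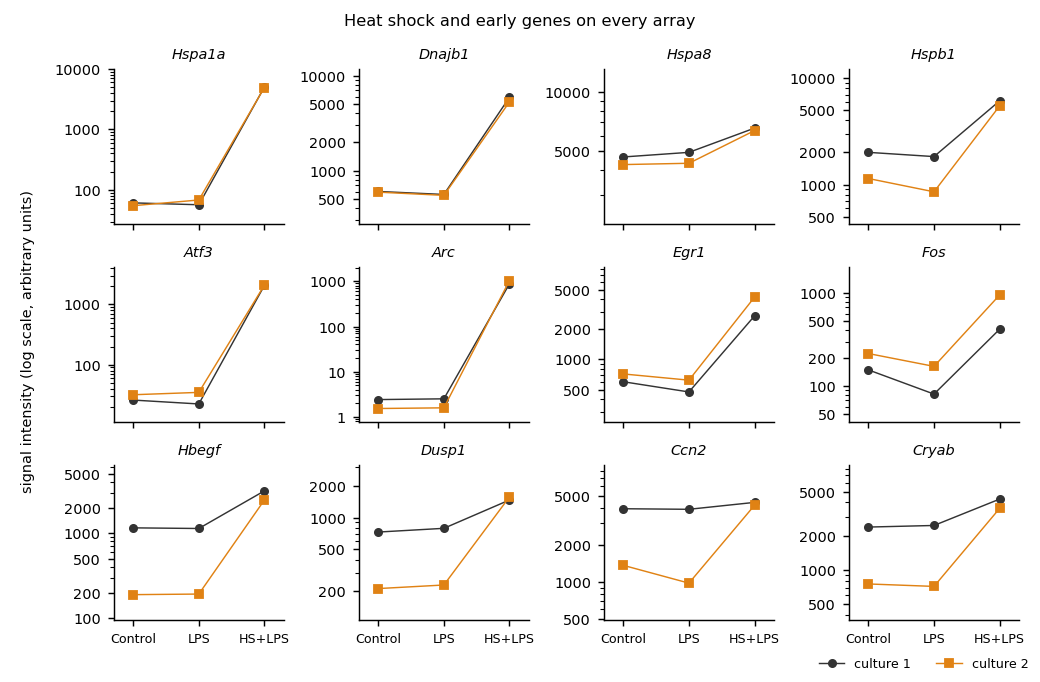
Signal intensity (log scale, arbitrary units) of 12 heat shock and early genes in Control, LPS and HS+LPS, with culture 1 as circles and culture 2 as squares. In every panel both HS+LPS values lie above the LPS value of the same culture, and for Hbegf, Dusp1, Ccn2 and Cryab the cultures lie apart in Control and LPS and close together in HS+LPS.

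Transcription factors of the AP-1 and ATF family, which bind as dimers to growth and stress genes, rose with heat before LPS: of 18 tested, 10 rose and 1 fell, with a median of 0.59 against −0.05 over all genes. Atf3, a stress-induced member that represses many inflammatory promoters, read 25.9 and 31.7 in Control, 22.3 and 34.7 with LPS and 2071 and 2093 with HS+LPS. The increase over LPS was 66.7-fold, a fold of intensity plus a pseudocount of 3.37 (log2 difference 6.06 ± 0.15, adjusted p = 8.84e-08), and both cultures ended at nearly the same signal. Fosb read 8.45 and 2.3 with LPS and 84.4 and 190 with HS+LPS (log2 difference 4.0 ± 0.49, adjusted p = 0.00103) and Fos 81.9 and 163 with LPS and 408 and 951 with HS+LPS (log2 difference 2.40 ± 0.14, adjusted p = 2.58e-05). Junb (1.64 ± 0.13), Jun (0.96 ± 0.09) and Maff (1.91 ± 0.42) also rose, and Batf fell by 1.37. Without the block, Atf3, Fosb and Junb remained called; without the LPS array of culture 2, 6 of the 10 increases were called, and Maff was not among them.

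Genes that cells switch on within minutes of a stimulus, without new protein, formed the list with the most increases: 19 of 29 tested rose and 1, Ier5l, fell, with a median of 0.93. Arc, known from activated neurons, had the largest fitted difference of all genes tested, a rank set by the pseudocount: with a pseudocount of 16 it was 5.76, under the 6.0 of Hspa1a. The summed signal of 12 neural and glial markers was 1796 to 2511 with LPS and 2144 to 2867 with HS+LPS, and its part in this result was not tested. Arc read 2.4 and 1.52 in Control and 2.49 and 1.57 with LPS, under the noise level of those arrays. With HS+LPS it read 884 and 1040, at least 96.6-fold higher than with LPS (limma, adjusted p = 5.55e-07). Csrnp1 read 27.5 and 14 with LPS and 315 and 528 with HS+LPS (log2 difference 4.15 ± 0.34, adjusted p = 0.000143). The orphan nuclear receptor Nr4a1 read 169 and 92 with LPS and 876 and 1306 with HS+LPS (log2 difference 3.06 ± 0.26, adjusted p = 0.000177), and the zinc finger factor Egr1 474 and 622 with LPS and 2725 and 4195 with HS+LPS (log2 difference 2.63 ± 0.09, adjusted p = 1.08e-06). These 4 genes were the ones called without the block. Smaller increases were seen for Sgk1 (1.72 ± 0.22), Gem (1.73 ± 0.21), Id2 (1.35 ± 0.12) and Srf (0.66 ± 0.14), while Myc, Hes1, Nr4a2 and Nr4a3 did not pass. The count depends on 1 culture: it was 8 without the LPS array of culture 2 and 12 without the HS+LPS array of culture 2.

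Proteins that turn off MAP kinases, which are themselves induced by that pathway, form a list of 18 tested dual-specificity phosphatases, Sprouty proteins and related inhibitors, of which 12 rose and 2 fell, with a median of 0.95. The list holds only some of the Dusp genes: of all 22 tested, 9 rose and none fell, with a median of 0.24. Dusp2, a nuclear phosphatase, read 40 and 13.7 with LPS and 240 and 452 with HS+LPS (log2 difference 3.62 ± 0.47, adjusted p = 0.00136), Dusp5 read 131 and 70.4 with LPS and 903 and 1100 with HS+LPS (log2 difference 3.33 ± 0.28, adjusted p = 0.000147) and Dusp4 134 and 50.5 with LPS and 463 and 723 with HS+LPS (log2 difference 2.76 ± 0.40, adjusted p = 0.00251). Dusp6, which acts on ERK in the cytoplasm, rose by 1.77 ± 0.19 and was, with Dusp5, called without the block. Dusp1, which also limits p38 signalling, read 792 and 230 with LPS and 1471 and 1572 with HS+LPS (log2 difference 1.82 ± 0.37, adjusted p = 0.0112): the cultures lay apart with LPS and close together with HS+LPS. Spry1 and Lrig1 fell by 1.09 and 1.29, and Lrig1 read 124 and 153 in Control, 293 and 396 with LPS and 108 and 175 with HS+LPS. Without the LPS array of culture 2, 8 of the 12 increases were called. Of 12 Krüppel-like factors, zinc finger proteins of growth control, 5 rose, led by Klf5 (1.62 ± 0.23) and Klf10 (1.51 ± 0.24), and 2 fell, led by Klf2, which read 69 and 96.6 with LPS and 23.6 and 29 with HS+LPS (log2 difference −1.52 ± 0.17, adjusted p = 0.00068); none was called without the block.

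Secreted growth factors included some of the largest increases. Of 28 tested angiogenic and EGF-type factors 11 rose and 4 fell, with a median of 0.29. Pgf, placental growth factor, read 9.28 and 15.1 with LPS and 166 and 225 with HS+LPS (log2 difference 3.68 ± 0.25, adjusted p = 5.46e-05), and Vegfa, its relative and the main angiogenic factor, 234 and 169 with LPS and 690 and 698 with HS+LPS (log2 difference 1.79 ± 0.14, adjusted p = 0.000123). Gdnf, a factor for neurons and kidney buds, read 30.6 and 38.9 with LPS and 115 and 174 with HS+LPS (log2 difference 1.94 ± 0.22, adjusted p = 0.000704). These 3 increases were also called without the block. Hbegf, a ligand of the EGF receptor, read 1134 and 193 with LPS and 3135 and 2448 with HS+LPS (log2 difference 2.55 ± 0.44, adjusted p = 0.0053), and Pdgfb (1.94 ± 0.34), Edn1 (2.0 ± 0.36) and Btc (1.82 ± 0.33) rose as well. Without the LPS array of culture 2 only 4 of the 11 were called, and Hbegf and Edn1 were not. Fgf7 fell from 825 and 909 to 334 and 433 (log2 difference −1.18 ± 0.09, adjusted p = 0.000109), a decrease also called without the block, and Vegfc, Angptl4 and Adm fell by 1.07, 0.94 and 0.94.

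Several large increases fell outside stress and growth control. P2rx7, an ATP-gated ion channel that drives release of interleukin 1, read 10 and 8.54 with LPS and 238 and 243 with HS+LPS (log2 difference 4.27 ± 0.22, adjusted p = 1.21e-05), whereas its relative P2rx4 fell to 137 and 138 from 278 and 331 (log2 difference −1.12 ± 0.11, adjusted p = 0.000352); 13 of 16 purinergic genes did not pass. Genes of the cornified envelope and hair keratins, known from skin, held 6 increases among 15 tested of 28 listed, with a median of 0.50. Lce1f read 8.81 and 1.32 with LPS and 474 and 262 with HS+LPS (log2 difference 5.56 ± 0.24, adjusted p = 3.48e-06), Sprr1a 15.2 and 8.78 with LPS and 165 and 237 with HS+LPS (log2 difference 3.74 ± 0.37, adjusted p = 0.000332) and Krtap1-5 9.98 and 1.23 with LPS and 90.4 and 97.8 with HS+LPS (log2 difference 3.64 ± 0.40, adjusted p = 0.000626), and these 3 were called without the block. Of 10 epithelial markers, Cdh1 and Esrp1 were at or under the noise level on all 6 arrays. Krt18 and Krt19 rose by 1.25 and 0.88, and neither call held without the block or without the LPS array of culture 1. Krt19 read 72.45 and 35.89 with LPS and 131.4 and 71.16 with HS+LPS. The other 4 epithelial markers tested did not pass. Of the 6 tested, 4 were higher with HS+LPS in both cultures. Krt5 was lower in both (−1.03 ± 0.50), and Epcam was higher in culture 1 and lower in culture 2. The summed signal of the 10 markers was 132 to 145 with LPS and 221 to 235 with HS+LPS. In such bulk RNA, more cells of a type and more RNA per cell cannot be told apart, and the part of other cells in these increases was not tested. Xirp1, a muscle actin-binding protein, was at least 5.43-fold higher, at 2.08 and 1.13 with LPS and 59.2 and 43.4 with HS+LPS (limma, adjusted p = 0.000824). The summed signal of 12 skeletal muscle markers was 293 to 333 with LPS and 429 to 490 with HS+LPS. Myf5, Myh3 and Myh8 were at or under the noise level on all 6 arrays. Of the 5 markers tested, 4 were higher with HS+LPS in both cultures, and 1 of these was called. The part of muscle cells in the result for Xirp1 was not tested. The Notch target Hey1 read 13.8 and 2.47 with LPS and 83.5 and 161 with HS+LPS (log2 difference 3.57 ± 0.48, adjusted p = 0.00175), and Efr3b, which anchors a lipid kinase at the membrane, 8.12 and 12.6 with LPS and 95.1 and 182 with HS+LPS (log2 difference 3.32 ± 0.28, adjusted p = 0.000174). The predicted genes Gm11563 and G530011O06Rik were also among the 20 largest fitted increases. G530011O06Rik rose by 3.74 ± 0.67, and Gm11563 read 0.445 and 0.0996 with LPS, under the noise level, and 62.5 and 80.4 with HS+LPS, at least 7.46-fold higher (adjusted p = 0.000317). Hey1 and G530011O06Rik were not called without the block.

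The chemokines, small proteins that draw leukocytes to a site of infection, held the largest fitted decrease. Of 14 tested CC chemokines, of 17 listed, 9 fell and none rose, with a median of −1.36. Ccl5, a T cell and monocyte attractant, read 2.69 and 10.2 in Control, 555 and 712 with LPS and 9.26 and 21 with HS+LPS. With heat before LPS it was 36-fold lower, on intensity plus the pseudocount (log2 difference −5.17 ± 0.23, adjusted p = 4.41e-06), the largest fitted decrease of all genes tested, and both values lay far below the LPS values. With a pseudocount of 1 the decrease of Ccl3, at −6.08, was larger than that of Ccl5. Ccl3 read 110 and 109 with LPS and 0.725 and 0.545 with HS+LPS, under the noise level with HS+LPS, and was at least 10.6-fold lower (adjusted p = 7.19e-05). Ccl9 read 287 and 240 with LPS and 24.6 and 26.4 with HS+LPS (log2 difference −3.20 ± 0.17, adjusted p = 1.21e-05) and Ccl7 1808 and 1855 with LPS and 440 and 486 with HS+LPS (log2 difference −1.98 ± 0.08, adjusted p = 1.75e-06). Ccl20, which attracts dendritic cells and differed between the cultures, read 2027 and 429 with LPS and 152 and 55.5 with HS+LPS (log2 difference −3.29 ± 0.18, adjusted p = 1.67e-05). Ccl2, the monocyte chemoattractant, read 1449 and 1310 in Control, 4642 and 3987 with LPS and 1747 and 1793 with HS+LPS, so that HS+LPS stayed above Control in both cultures (log2 difference −1.28 ± 0.08, adjusted p = 3.47e-05 against LPS). Ccl2, Ccl3, Ccl5, Ccl7 and Ccl9 were called without the block, and Ccl4, Ccl8, Ccl11 and Ccl20 were not.

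Of 14 CXC and CX3C chemokines, which attract neutrophils or, in the interferon-induced members, T cells, 8 fell and none rose, with a median of −1.95. Cxcl10 read 11.2 and 7.85 in Control, 591 and 428 with LPS and 35.5 and 46.6 with HS+LPS (log2 difference −3.52 ± 0.22, adjusted p = 3.22e-05 against LPS). Cxcl2 read 1190 and 886 with LPS and 61.6 and 110 with HS+LPS (log2 difference −3.58 ± 0.36, adjusted p = 0.000404) and Cxcl3 161 and 172 with LPS and 7.21 and 14.6 with HS+LPS (log2 difference −3.62 ± 0.28, adjusted p = 0.000103). Cxcl1, a neutrophil attractant, read 208 and 703 in Control, 3690 and 3646 with LPS and 767 and 1361 with HS+LPS; it fell against LPS (log2 difference −1.84 ± 0.30, adjusted p = 0.00463) and stayed above Control in both cultures. Cxcl11 (−3.72 ± 0.53) and Cxcl5 (−2.88 ± 0.34) fell, as did Cx3cl1 (−2.08 ± 0.15) and Cxcl16 (−2.05 ± 0.15), both tethered to the cell surface. Cxcl12, a chemokine that fibroblasts make at rest, differed by 0.14 ± 0.08 and did not pass. Without the block, Cxcl1, Cxcl5 and Cxcl11 were no longer called.

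**Figure D4:**
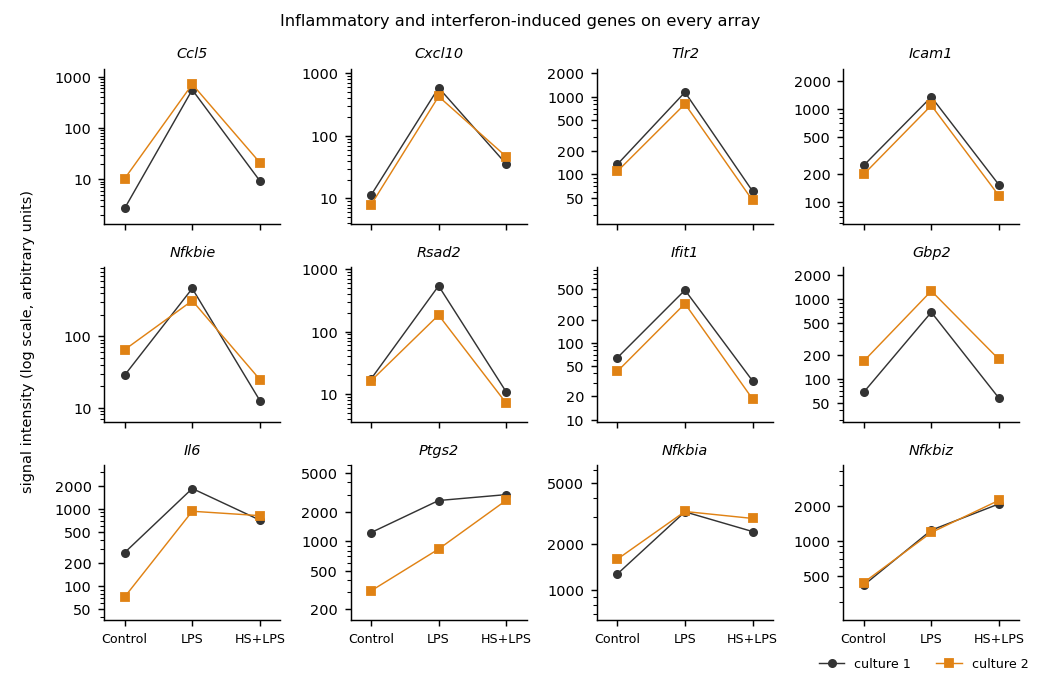
Signal intensity (log scale, arbitrary units) of 12 inflammatory and interferon-induced genes in Control, LPS and HS+LPS, with culture 1 as circles and culture 2 as squares. In the upper 8 panels both HS+LPS values lie below both LPS values, whereas Ptgs2 and Nfkbiz are higher with HS+LPS than with LPS in each culture and Il6 and Nfkbia show the smallest decreases.

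The cytokines did not move together. Of 19 tested cytokines and colony-stimulating factors, of 27 listed, 10 fell and 2 rose, with a median of −1.17. Tnf read 47.5 and 31.1 with LPS and 1.77 and 2.46 with HS+LPS, under the noise level with HS+LPS, and was at least 3.93-fold lower (adjusted p = 0.00231). Il1b fell from 99.8 and 67.3 to 8.76 and 13.6 (log2 difference −2.57 ± 0.29, adjusted p = 0.000683). The myeloid growth factors Csf2 (−1.63 ± 0.38), Csf3 (−1.61 ± 0.43) and Csf1 (−0.69 ± 0.08) fell by different amounts. Il11, an interleukin 6-type cytokine of stromal cells, rose: it read 49.8 and 17.2 in Control, 74.4 and 25.8 with LPS and 527 and 345 with HS+LPS (log2 difference 3.17 ± 0.20, adjusted p = 3.74e-05 against LPS), and Clcf1, of the same family, rose by 1.36 ± 0.19. Only Tnf, Il1b and Tnfsf9 were called without the block, which also lost Il11 (adjusted p = 0.0822), and 5 of the 10 decreases were called without the LPS array of culture 1.

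Il6 and Lif, also of the interleukin 6 family, did not pass. Il6 read 271 and 72.3 in Control, 1832 and 931 with LPS and 714 and 816 with HS+LPS (log2 difference −0.77 ± 0.36, adjusted p = 0.166 against LPS): it was lower with HS+LPS in culture 1 and hardly differed in culture 2, and without the HS+LPS array of culture 1 the difference turned to 0.03. Without that of culture 2 it was −1.58 and was called (limma, adjusted p = 3.91e-06), as in 3 other of the 17 alternative settings. Lif read 607 and 185 with LPS and 599 and 367 with HS+LPS (log2 difference 0.48 ± 0.19, adjusted p = 0.12).

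The receptor for LPS itself did not pass the test, nor did Tlr1, Tlr5, Tlr6 and Tlr9, while Tlr2 and Tlr3 fell. Tlr4 (0.34 ± 0.14) and its partner Ly96, or MD-2 (0.08 ± 0.14), did not pass, and the sign for Tlr4 turned when the probe sets of a gene were averaged. Tlr2, which senses bacterial lipoproteins, read 134 and 109 in Control, 1142 and 807 with LPS and 60.7 and 46.1 with HS+LPS (log2 difference −4.10 ± 0.11, adjusted p = 1.05e-07 against LPS). The HS+LPS values were the lowest of the 3 groups in both cultures. Cd14, which loads LPS onto Tlr4 with Ly96, fell from 118 and 93.2 to 35 and 34.9 (log2 difference −1.50 ± 0.18, adjusted p = 0.000824), and Lbp, the serum protein that extracts LPS, from 149 and 188 to 62.7 and 94.1 (log2 difference −1.09 ± 0.14, adjusted p = 0.00128). The shared adaptor Myd88 fell by 0.67, whereas Ticam1, which encodes TRIF, differed by 0.13 ± 0.23 and did not pass. In all, 8 of 18 tested genes fell and none rose, with a median of −0.48; Tlr2 and Cd14 were called without the block, and without the LPS array of culture 2 the count was 5.

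NF-kB is held in the cytoplasm by inhibitor proteins that it induces in turn. Of 27 tested subunits, inhibitors and regulators 13 fell and 3 rose, with a median of −0.42. Among the inhibitors, Nfkbie, IkB epsilon, read 28.4 and 64.8 in Control, 470 and 317 with LPS and 12.5 and 24.7 with HS+LPS (log2 difference −4.21 ± 0.34, adjusted p = 0.000116 against LPS), whereas Nfkbia, IkB alpha, read 1271 and 1587 in Control, 3228 and 3245 with LPS and 2402 and 2924 with HS+LPS and did not pass (log2 difference −0.29 ± 0.09, adjusted p = 0.0521). It was called lower in 7 of 17 alternative settings, with a log2 difference of −0.46 (limma, adjusted p = 0.00177) after quantile normalization. Of the atypical nuclear inhibitors, Nfkbiz read 1239 and 1183 with LPS and 2082 and 2235 with HS+LPS (log2 difference 0.83 ± 0.08, adjusted p = 0.000247) and Nfkbid 19.7 and 21.1 with LPS and 49.1 and 74.8 with HS+LPS (log2 difference 1.43 ± 0.26, adjusted p = 0.00675), and Bcl3 did not pass (log2 difference −0.22 ± 0.18, adjusted p = 0.427). Of the subunits, Nfkb2 (−1.97 ± 0.24), Relb (−1.15 ± 0.15) and Rela (−0.42 ± 0.08) fell and Rel did not pass. The ubiquitin ligases Birc3 (−2.75 ± 0.24) and Birc2 (−1.70 ± 0.16), the kinase Ikbke (−2.31 ± 0.18) and the A20 partner Tnip1 (−1.73 ± 0.10) fell. Tnfaip3, A20 itself, read 72.6 and 79.2 in Control, 419 and 330 with LPS and 205 and 140 with HS+LPS (log2 difference −1.12 ± 0.15, adjusted p = 0.00193 against LPS), above Control in both cultures. The increase of Nfkbid was not called without the LPS or the HS+LPS array of culture 2. Without the block Nfkbie, Birc2, Birc3, Ikbke, Tnip1, Relb and Nfkbiz remained called.

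Among regulators that degrade inflammatory mRNAs, Zfp36, tristetraprolin, read 100 and 140 with LPS and 226 and 372 with HS+LPS (log2 difference 1.27 ± 0.13, adjusted p = 0.000376), and Zc3h12a, the nuclease Regnase-1, read 46.4 and 47.4 in Control, 411 and 364 with LPS and 322 and 365 with HS+LPS, a difference of −0.17 ± 0.12 from LPS that did not pass (adjusted p = 0.343). Of the whole list of 23 RNA-decay regulators 4 rose and 6 fell, with a median of −0.07, and none was called without the block. Of all genes tested 6.32% rose and 12.6% fell. The largest decreases of the list were those of Dcp2 (−0.80 ± 0.17), Rc3h2 (−0.72 ± 0.12) and N4bp1 (−0.54 ± 0.10). The deadenylase subunits Cnot2, Cnot6 and Cnot7 fell by 0.52, 0.31 and 0.37, and without the LPS array of culture 2 only 1 of the 6 decreases was called, and without that of culture 1, 2 were.

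Adhesion molecules and enzymes of the inflammatory response were lower in 20 of 27 tested genes, of 35 listed, and higher in none, with a median of −1.56. Icam1, which leukocytes grip as they leave vessels, read 247 and 198 in Control, 1343 and 1090 with LPS and 153 and 117 with HS+LPS (log2 difference −3.14 ± 0.09, adjusted p = 1.45e-07 against LPS). Vcam1, its counterpart for lymphocytes, read 2152 and 1836 with LPS and 333 and 559 with HS+LPS (log2 difference −2.19 ± 0.20, adjusted p = 0.000204). The HS+LPS values of both genes lay far below their LPS values in each culture. Acod1, which makes itaconate, was at least 8.9-fold lower, at 138 and 60.1 with LPS and 0.735 and 1.43 with HS+LPS (adjusted p = 0.000421), and Nos2, inducible nitric oxide synthase, at least 6.66-fold lower, at 62.4 and 73 with LPS and 0.817 and 0.948 with HS+LPS (adjusted p = 0.000265). Both were at or under the noise level with HS+LPS. Slc7a2, which imports the arginine that nitric oxide synthase uses, read 1098 and 958 with LPS and 76.5 and 135 with HS+LPS (log2 difference −3.29 ± 0.19, adjusted p = 2.25e-05). The acute-phase and pattern recognition genes Saa3 (−2.39 ± 0.17), Ptx3 (−2.12 ± 0.18), Lcn2 (−1.83 ± 0.10) and Cfb (−1.97 ± 0.21) fell, and so did Sod2 (−1.34 ± 0.11), the mitochondrial superoxide dismutase that NF-kB induces. Of the prostaglandin enzymes, Ptges, which makes prostaglandin E2, fell from 407 and 470 to 134 and 159 (log2 difference −1.56 ± 0.10, adjusted p = 3.27e-05), while Ptgs2, cyclooxygenase 2, read 1223 and 309 in Control, 2610 and 830 with LPS and 3001 and 2626 with HS+LPS and did not pass (log2 difference 0.93 ± 0.33, adjusted p = 0.0817 against LPS). It was called higher in 5 of 17 alternative settings, and its log2 difference was 1.74 without the HS+LPS array of culture 1 and 0.12 without that of culture 2. Ptgs2 was higher with HS+LPS in both cultures, by little in culture 1. Cebpb and Cebpd, transcription factors of the acute-phase response, did not pass either, at 0.21 ± 0.11 and −0.23 ± 0.08. Without the block 10 of the 20 decreases remained, among them Icam1, Vcam1, Acod1, Nos2, Slc7a2 and Ptx3.

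Genes that interferon induces against viruses were lower in 25 of 34 tested cases, of 42 listed, and 1, Isg20, was higher, with a median of −1.27. Rsad2, viperin, read 17.4 and 16.3 in Control, 537 and 184 with LPS and 10.8 and 7.16 with HS+LPS (log2 difference −4.70 ± 0.32, adjusted p = 5.18e-05 against LPS). Ifit1, which binds foreign RNA, read 63.9 and 42.4 in Control, 488 and 325 with LPS and 31.9 and 18.5 with HS+LPS (log2 difference −3.85 ± 0.14, adjusted p = 1.08e-06 against LPS). In both genes the HS+LPS values lay below the Control values of the same culture. Rtp4 read 470 and 331 with LPS and 41.6 and 36.2 with HS+LPS (log2 difference −3.24 ± 0.13, adjusted p = 1.8e-06), Cmpk2 136 and 79.9 with LPS and 12 and 9.3 with HS+LPS (log2 difference −2.95 ± 0.32, adjusted p = 0.000541) and Parp14 193 and 111 with LPS and 19.4 and 12.2 with HS+LPS (log2 difference −3.0 ± 0.26, adjusted p = 0.000177). Eif2ak2, the RNA-activated kinase PKR, fell by less (−0.52 ± 0.12). Ifitm3, Bst2 and Lgals3bp did not pass. Without the block 15 of the 25 decreases were called. Isg20, at 43.1 and 45.7 with LPS and 64.4 and 73 with HS+LPS (log2 difference 0.59 ± 0.17, adjusted p = 0.0426), lost its call whenever any 1 of the 6 arrays was left out.

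All 8 tested GTPases, of 15 listed, of the immunity-related and guanylate-binding families, which attack vacuoles of intracellular pathogens, fell, with a median of −2.68. Gbp6 read 5.74 and 57.8 in Control, 342 and 956 with LPS and 14.5 and 33.8 with HS+LPS (log2 difference −4.48 ± 0.33, adjusted p = 8.36e-05 against LPS), Gbp2 686 and 1273 with LPS and 56.7 and 175 with HS+LPS (log2 difference −3.18 ± 0.15, adjusted p = 6.18e-06) and Irgm2 180 and 185 with LPS and 18.8 and 19.6 with HS+LPS (log2 difference −3.04 ± 0.17, adjusted p = 1.88e-05). The cultures differed in level for Gbp6 and Gbp2, and the HS+LPS values lay below the LPS values in both. All 8 were called with any 1 array left out, and 5 without the block, not Gbp2, Gbp6 and Irgm1. Several Gbp genes resemble one another, so their probe sets may share signal.

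Signalling genes upstream of these effectors fell in 13 of 28 tested cases and rose in 2, with a median of −0.44. Ifih1, the RNA sensor MDA5, read 162 and 129 with LPS and 36.6 and 34.5 with HS+LPS (log2 difference −1.93 ± 0.17, adjusted p = 0.000218), and Stat2, part of the factor that binds the interferon-stimulated response element, 88.3 and 75.1 with LPS and 25 and 20.4 with HS+LPS (log2 difference −1.71 ± 0.18, adjusted p = 0.000443). Its partner Irf9 fell by 1.01, and Irf1 (−1.48 ± 0.12), Irf7 (−1.36 ± 0.25), Irf3 (−0.93 ± 0.13) and the receptor chain Ifnar1 (−0.92 ± 0.10) fell. The interferon beta gene was not among the genes tested. The feedback inhibitors Cish (1.52 ± 0.15) and Socs3 (0.80 ± 0.15) rose, and Socs1 did not pass. Without the block Cish and 4 of the 13 decreases were called, and Socs3, Irf1, Irf3, Irf7 and Irf9 were not. Of 15 genes of MHC class I antigen processing 8 fell and 1, Pdia3, rose, with a median of −0.49. The inducible proteasome subunit Psmb8 read 139 and 225 with LPS and 44.4 and 82.8 with HS+LPS (−1.49 ± 0.16). Psmb10, another such subunit, read 298 and 442 with LPS and 131 and 220 with HS+LPS (−1.08 ± 0.10), whereas Tap1 and B2m did not pass, and none of this list was called without the block. The 28 tested genes of the standard proteasome held 2 increases, Psmb2 and Psmc3, and no decrease; neither increase was called without either LPS array, and median centring brought the count to 14.

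Other stress pathways showed no single direction. Of 23 genes of the integrated stress response, which lowers translation while raising the factor ATF4, 4 rose and 5 fell. Ppp1r15a, which restores translation, rose from 200 and 163 to 403 and 407 (log2 difference 1.15 ± 0.11, adjusted p = 0.000252), while Ddit3, or CHOP, fell by 0.90 and Atf4 by 0.35, and no decrease of the list was called without the LPS array of culture 2 and 2 without that of culture 1. Of 20 genes of the NRF2 response and metallothioneins 5 rose and 3 fell. Hmox1, heme oxygenase 1, read 1599 and 804 with LPS and 2972 and 2142 with HS+LPS (log2 difference 1.15 ± 0.14, adjusted p = 0.00111) and Srxn1, sulfiredoxin, 347 and 372 with LPS and 786 and 790 with HS+LPS (log2 difference 1.13 ± 0.10, adjusted p = 0.000204), but Nfe2l2, which encodes NRF2, fell from 1145 and 1235 to 555 and 629 (log2 difference −1.01 ± 0.07, adjusted p = 8.36e-05) and Nqo1 and Gclm did not pass; 3 increases and 1 decrease were called without the LPS array of culture 2, and 5 decreases without the HS+LPS array of culture 1. Of 21 p53 targets and GADD45 genes 9 rose and 3 fell. Mdm2, the ligase that degrades p53, read 1165 and 1063 with LPS and 2072 and 2196 with HS+LPS (log2 difference 0.94 ± 0.09, adjusted p = 0.000252), Cdkn1a did not pass, and Fas, a death receptor, fell from 801 and 595 to 290 and 127 (log2 difference −1.83 ± 0.15, adjusted p = 0.000167); without the LPS array of culture 2, 5 of the 9 increases were called. In the BCL2 family Bid, the target of caspase 8, fell by 1.67 while Pmaip1, Bcl2l11, Mcl1 and Bad rose by 0.91, 0.60, 0.49 and 0.42; 4 of 14 rose and 2 fell, and 2 of the 4 were called without the LPS array of culture 2. Of 18 ubiquitin and autophagy genes 4 rose, by 0.24 to 0.50, and 1 of them was called when either LPS array was left out. Without the block Ppp1r15a, Chac1, Srxn1, Mdm2 and Nfe2l2 were the genes called in these lists.

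Receptors and matrix genes of the fibroblast programme shifted modestly. Of 29 receptor tyrosine kinases 8 fell and 2 rose, with a median of −0.15. Pdgfrb, the platelet-derived growth factor receptor of mesenchymal cells, read 1608 and 1549 with LPS and 883 and 911 with HS+LPS (log2 difference −0.81 ± 0.07, adjusted p = 0.000212) and was the one called without the block; without the LPS array of culture 2 only 2 of the 8 were called, and without that of culture 1, 3. In TGF-beta and BMP signalling 8 of 31 rose and 4 fell. The inhibitor Smad7 read 237 and 111 with LPS and 442 and 443 with HS+LPS (log2 difference 1.43 ± 0.23, adjusted p = 0.00392), the co-receptor Tgfbr3 fell by 1.30, and Inhba, the activin subunit, rose by 1.24 ± 0.31. The increases numbered 3 without the LPS array of culture 2, and the decreases 9 without the HS+LPS array of culture 1. Of 33 collagens and other matrix proteins 28 did not pass, Col1a1 (0.10 ± 0.09) and Fn1 (0.13 ± 0.09) among them. Among the matrix proteases, Mmp3 fell from 1321 and 2159 to 552 and 636 (log2 difference −1.50 ± 0.11, adjusted p = 8.36e-05) and Adamts4 from 179 and 155 to 26.1 and 61.4 (log2 difference −1.96 ± 0.28, adjusted p = 0.0023); 8 of 20 proteases and inhibitors fell and 2 rose, with a median of −0.30. Of 23 contractile genes 3 rose (1 without the LPS or the HS+LPS array of culture 2, 6 without the HS+LPS array of culture 1) and 20 did not pass, Actb (0.12 ± 0.10, with the sign turned under quantile normalization) and Acta2 among them. None of the TGF-beta, matrix, protease and contractile genes was called without the block.

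Among 26 mesenchymal transcription factors 7 rose and 6 fell. Sox9, of cartilage formation, read 39.1 and 49.6 with LPS and 156 and 273 with HS+LPS (log2 difference 2.15 ± 0.16, adjusted p = 8.92e-05), and Foxc2 rose by 1.26 ± 0.14. The summed signal of 10 adipogenic, chondrogenic and osteogenic markers, Sox9 among them, was 467 to 677 with LPS and 752 to 853 with HS+LPS. Sox9 made much of that increase, so the sum is no separate reading of such cells. Of the 7 markers tested, Sox9 and Pparg were called higher, neither of them without the block, and 5 did not pass. The part of such cells in these results was not tested. Snai2, a regulator of mesenchymal identity, fell from 1060 and 1046 to 561 and 594 (log2 difference −0.86 ± 0.08, adjusted p = 0.000252) and was the only one called without the block, whereas its relative Snai1 rose by 0.53; Prrx1 fell by 0.73 and Twist1 did not pass. Without the LPS array of culture 1, 3 of the 7 increases were called, and without that of culture 2, 4. Of 18 clock genes 5 rose, led by Bhlhe40, a clock repressor, at 480 and 283 with LPS and 1184 and 1094 with HS+LPS (log2 difference 1.62 ± 0.14, adjusted p = 0.00017), and 2 of the 5 were called without the LPS array of culture 2. Of 35 cell cycle genes 5 rose, 4 fell and 26 did not pass, where 6.32% of all genes tested rose and 12.6% fell. The replication factors Cdt1, Mcm4, Mcm6 and Mcm7 and Ccne2 rose by 0.41 to 0.81. The mitotic genes Plk1, Bub1b, Mki67 and Cdk1 fell by 0.50 to 0.78. Other genes of replication and of mitosis in the list did not pass, and none of the list was called without the block. None of the 5 increases was called without the LPS array of culture 2, and none of the 4 decreases without that of culture 1.

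Of 17 genes of cholesterol synthesis, uptake and export 6 fell and none rose, with a median of −0.18. The exporters Abcg1 (−1.09 ± 0.31) and Abca1 (−0.84 ± 0.09) fell most. Lss, Sqle, Srebf2 and Idi1 fell by 0.63, 0.54, 0.39 and 0.34, and 11 genes did not pass. Of 16 genes of glycolysis and glucose uptake 4 fell and none rose, with a median of −0.08. The largest decrease was that of Pfkfb3, which makes the activator of phosphofructokinase. It read 130 and 147 with LPS and 59.1 and 75.5 with HS+LPS (log2 difference −1.01 ± 0.16, limma, adjusted p = 0.0041). Of 23 splicing regulators 4 fell and 1 rose, with a median of −0.02, and Clk2, a kinase of splicing factors, fell by 0.75. Over all genes tested 12.6% fell and 6.32% rose, with a median of −0.05. Of 15 tested ribosomal protein genes, of 26 listed, none was called, with 9 called higher after median centring; their median was 0.18 as deposited and 0.00 after quantile normalization. None of these 4 lists held a call without the block, and their counts without the LPS array of culture 1 were 2, 2, 1 and 0 decreases.

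Promoter motifs were counted over the 10406 tested genes with a RefSeq promoter, from 250 bases before to 50 after the start, on both strands. The head-to-head heat shock element GAANNTTC was present in 5.68% of them, in 6.79% of the higher and 4.54% of the lower genes, and in 7 of 36 genes at least 4-fold higher (19.4%) against 3 of 43 at least 4-fold lower (6.98%). In only the 250 bases before the start it was in 4 of the 36 (11.1%) and in 2 of the 43 (4.65%). The core of the interferon-stimulated response element was in 2.87% of all, 2.56% of the higher and 4.39% of the lower genes, and in 9 of 43 at least 4-fold lower (20.9%) against 1 of 36 at least 4-fold higher (2.78%). The NF-kB motif was in 2.58% of all, 1.36% of the higher and 3.86% of the lower genes, in 9 of the 43 (20.9%) and in 0 of the 36. The AP-1 motif TGANTCA was in 5.13% of all, 5.43% of the higher and 4.99% of the lower genes, in 10 of the 43 (23.3%) and in 5 of the 36 (13.9%). The cyclic AMP response element TGACGTCA was in 3.14% of all, in 1 of the 43 (2.33%) and in 2 of the 36 (5.56%). TATAAA was in 7.55% of all, in 15 of the 43 (34.9%) and in 6 of the 36 (16.7%). These shares are descriptions with no test, and most genes called in either direction held no match in this window.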

How the data were processed

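RNA of 6 samples (Control, LPS and HS+LPS in each of 2 cultures) was hybridised to 1-colour arrays. The deposited values are linear intensities that the authors had scaled to a common trimmed mean; the software and background correction are not given in the sources used here. Of 45101 probe sets, 34958 had 1 gene symbol in the platform annotation, 932 several and 9160 none, and 34754 of those symbols matched RefSeq. Control probe sets and genes whose brightest probe set lay under the 40th percentile were left out. Log2(intensity + 3.37), the 25th percentile as pseudocount, was fitted with limma 3.58.1 in R 4.3.3 (lmFit, eBayes with an intensity trend) over 3 groups with the culture as a block, which left 2 residual degrees of freedom and 6.7 prior ones; p-values were adjusted by the Benjamini-Hochberg method over the 12918 genes. A fold change on this scale understates the change of dim genes, and errors printed after ± are the SE of the fit. Where both arrays of a group were at or under the noise level, the fold is given as a lower bound ("at least"), the mean of the brighter group against the higher of the noise level and the dim value. Where only 1 of the 2 arrays was, the fitted difference is printed and its size is uncertain. With LPS this holds for Lce1f, Krtap1-5, Hey1, Fosb and G530011O06Rik, and with HS+LPS for Cxcl3 and Cxcl11. The number of arrays limits the precision. The block takes out the level of each culture. The p-values therefore rest on how the differences between groups varied between the 2 cultures, over all 3 groups. That spread was moderated towards the spread of other genes.

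The culture number pairs the arrays because the series design text derives the cultures from separate embryos; deviations of same-numbered arrays from their group means correlated at 0.62 between Control and LPS, at 0.57 between Control and the heated group and at 0.54 between both LPS-treated groups, and the median SE was 0.15 with the block and 0.23 without. The genes named are the 20 largest increases and 20 largest decreases among called genes of the same sign in both cultures and bright above noise, up to 4 called members per list and direction, and a fixed panel; others were named for their role after their values were seen. The members and lists were chosen with earlier results of these data known. HS+LPS against LPS and LPS against Control share the LPS arrays. The pipeline was tested on simulated data. Alternatives were the fit without the block, only the 4 arrays compared, pseudocounts of 1 and 16, other filters, quantile normalization, median centring, the mean of probe sets, no cross-hybridising probe sets, no intensity trend, and each array left out.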

Additional observations from a re-analysis of the deposited data

How the results depend on the processing

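The counts of 816 higher and 1627 lower genes stayed within 1.5 times of these values with only the 4 arrays compared, with pseudocounts of 1 and 16, with either filter, with quantile normalization, with the mean of probe sets and without cross-hybridising probe sets. Without the replicate block they were 66 and 107, and without the intensity trend 131 and 312. Median centring gave 1832 higher genes and 1093 lower ones, so that 62.6% of calls were higher against 33.4% as deposited and 39.0% after quantile normalization. Leaving out 1 array gave 275 to 910 higher and 508 to 2009 lower genes, lowest without the LPS array of culture 2. Of the 214 called genes among the 248 named, 128 lost their call without the block, 99 without the trend, 53 without the LPS array of culture 2 and 36 without that of culture 1. Genes that did not pass were called in some alternatives, Nr4a3 in 8, Nfkbia in 7, Ptgs2 and Cdkn1a in 5, Il6 and Hes1 in 4, Lif, Cebpd, Lgals3bp and Tlr4 in 2 and Bcl3, Cebpb, Cxcl12, Ifitm3 and Myc in 1. The direction turned only for named genes that did not pass, and none passed where it turned; the cause was not tested. With quantile normalization Acta2, Actb and Fn1 were at −0.03, B2m and Col1a1 at −0.08, Cxcl12 at −0.0, Nqo1 at 0.05 and Nr4a2 at 0.33. With median centring Gclm was at 0.07, Ifitm3 at 0.01, Nqo1 at 0.08 and Nr4a2 at 0.11. With the mean of probe sets Acta2 was at −0.0, Tlr4 at −0.04 and Nr4a2 at 0.42, without cross-hybridising probe sets Acta2 at −0.12, and with a pseudocount of 1 Nr4a2 at 0.24. With single arrays left out the log2 difference ranged from −1.58 to 0.03 for Il6, −0.06 to 0.3 for Actb, −0.03 to 0.22 for B2m, −0.54 to 0.1 for Bcl3, −0.6 to 0.1 for Eif2s3y, −1.41 to 0.3 for Hsf4, −0.23 to 0.0 for Ifitm3, −0.07 to 0.23 for Ly96, −0.12 to 1.42 for Myc, −0.11 to 0.02 for Nqo1, −0.4 to 0.36 for Nr4a2, −0.14 to 0.97 for Rel, −0.26 to 0.62 for Socs1 and −0.29 to 0.55 for Ticam1. Signals under the noise level of 6.0 to 7.67 carry no fold, and several calls of about 0.3 on the log2 scale, such as those of Cct4 and Hspa5, were lost under quantile normalization or with 1 array left out.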

Other observations

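Some called genes lay outside every list and were chosen after their values were seen. Zfand2a, a zinc finger protein induced by arsenite and heat, read 382 and 268 with LPS and 1776 and 1249 with HS+LPS (log2 difference 2.21 ± 0.08, adjusted p = 1.42e-06). Rspo2, a secreted activator of Wnt signalling, read 701 and 640 with LPS and 195 and 133 with HS+LPS (log2 difference −2.03 ± 0.11, adjusted p = 1.56e-05).

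Gene families grouped by the stem of their symbol were likewise read after the values were seen, with no test. Of 300 tested genes named Zfp, mostly zinc finger proteins of the DNA-binding kind, 65 fell (21.7% against 12.6% of all genes) and 14 rose (4.67% against 6.32%), with a median of −0.33. Median centring gave 39 lower and 18 higher genes of the 300 and a median of −0.21. Over all 12918 genes, median centring gave 1093 lower and 1832 higher genes and a median of 0.08. Without the culture block 2 of the 300 fell and 1 rose, where 0.828% of all genes fell and 0.511% rose, so that the share of Zfp genes was then below that of all genes in both directions. Zfp407 read 128 and 144 with LPS and 50 and 38 with HS+LPS (log2 difference −1.56 ± 0.16, adjusted p = 0.000434). Parp genes, which attach ADP-ribose, fell in 6 of 11 tested cases.

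Runs of 4 or more neighbouring tested genes called in the same direction, in RefSeq order, were all lower. Of all genes tested 12.6% were lower and 6.32% higher, and how many runs these shares alone would give was not tested. Chromosome 17 held 7 Zfp genes (median −0.91), chromosome 11 Ccl5, Ccl9, Ccl3, Ccl4 and Wfdc17 (−3.2), chromosome 19 Fas, Ch25h, Lipa, Ifit2, Ifit3 and Ifit1bl1 (−1.77) and chromosome 3 Pdlim5, Gbp7, Gbp3 and Gbp2 (−2.68). The other runs, 1 each on chromosomes 2, 11, 12 and X, had medians of −1.08, −0.56, −0.6 and −0.59. Without the block no gene of the Zfp run was called, and Nfe2l2 was the only one called in these other runs.

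Gene length is given with no test: the median RefSeq span was 23.4 kb for all tested genes, 16.7 kb for the higher and 27.8 kb for the lower ones, but 11.1 and 10.2 kb for those changed at least 4-fold in either direction.

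The 52 genes called higher in the early gene, AP-1, phosphatase and growth factor lists differed in level between the cultures already in Control. There 34 of them were brighter in culture 1, with a median log2 ratio of culture 1 to culture 2 of 0.32. With LPS 39 of them were brighter in culture 1, with a median ratio of 0.23. With HS+LPS 9 of them were brighter in culture 1 and the median ratio was −0.33. Over all 816 genes called higher the median ratio was 0.04 in Control, 0.05 with LPS and −0.09 with HS+LPS.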
